A study of Rattus norvegicus with 12 samples.

Results

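Skeletal muscle fibers differ in how fast they shorten, and that difference is set largely by which version of the myosin motor and of the troponin switch a fiber makes. Myosin heavy chain is the motor protein of the thick filament. Slow, oxidative type I fibers use the chain encoded by Myh7, and fast fibers use those of Myh2 (type IIa), Myh1 (type IIx) or Myh4 (type IIb). Troponin sits on the thin filament and couples calcium to contraction through 3 subunits, each with a slow and a fast skeletal gene. Troponin I holds the filament off (slow Tnni1, fast Tnni2), troponin T binds tropomyosin (slow Tnnt1, fast Tnnt3) and troponin C binds calcium (slow Tnnc1, fast Tnnc2). The ratio of slow to fast transcripts is therefore often read as a measure of the fiber-type make-up of a muscle.

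These 10 genes were described here in the rat pubocaudalis, a muscle of the pelvic floor. Members were the rows of the deposited gene table carrying one of the 10 symbols. Rows were found for 9 of the 10, among 30206 rows in all, and all 9 were among the 14599 genes that passed the low-count filter. Myh1 was not analysed here, so the fast myosin side consisted of Myh2 and Myh4. All animals were 3-month-old female Sprague-Dawley rats that received a simulated birth injury (SBI, distention of the vagina with a balloon) late in pregnancy. After delivery the pups were either removed (SBI) or left to nurse (SBI + Lac), and muscle was taken 1 week or 3 weeks after the injury. This gave the non-lactating groups 1wk SBI and 3wk SBI and the nursing groups 1wk SBI + Lac and 3wk SBI + Lac. Each of the 4 groups held 6 rats pooled by RNA in pairs into 3 libraries. There was no uninjured group among these 12 libraries, so every difference below is between injured muscles. Levels are normalized CPM (counts divided by library size after trimmed-mean, TMM, scaling), are not divided by transcript length, and were therefore compared between groups and not between genes.

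The 12 libraries held between 10082570 and 75634209 counts, and each 1wk SBI library was deeper than each 1wk SBI + Lac library. The lowest count of any member in any library was 5985 (Tnnc1 in 3wk SBI replicate 1), so that sampling of reads added little to the spread between pools. The 8 skeletal muscle markers (Acta1, Ckm, Ttn, Neb, Des, Ryr1, Cacna1s and Mb) were present in every library and summed to 69760.4 to 155139 CPM. Cardiac muscle markers (Myh6, Tnni3, Nppa and Nppb) summed to 19.0 to 91.2 CPM. This matters because Myh7 and Tnnc1 are also the genes used by heart muscle.

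The DNA in front of the annotated starts of the 3 measured myosin genes is shown because their transcripts form the slow-to-fast myosin ratio. Whether these starts are the ones used in this muscle was not tested, so a window need not be the promoter that acts there. Sequences are the 250 bases before the annotated start in RefSeq (build GRCr8), written 5′ to 3′ on the strand of the gene. Capitals mark matches, on either strand, to a TATA box (TATAAA), an E-box (CANNTG, bound by myogenic factors such as MyoD), an MCAT element (CATTCC, bound by TEAD factors) or the MEF2 consensus. Myh7 lies at chr15:32438195-32438444 (minus strand), Myh2 at chr10:52355489-52355738 and Myh4 at chr10:52421898-52422147 (both plus strand).
Myh7: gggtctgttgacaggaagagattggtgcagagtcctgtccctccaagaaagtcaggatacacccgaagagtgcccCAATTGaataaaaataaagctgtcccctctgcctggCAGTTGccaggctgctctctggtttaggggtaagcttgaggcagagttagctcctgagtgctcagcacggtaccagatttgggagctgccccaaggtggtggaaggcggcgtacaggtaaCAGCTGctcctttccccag
Myh2: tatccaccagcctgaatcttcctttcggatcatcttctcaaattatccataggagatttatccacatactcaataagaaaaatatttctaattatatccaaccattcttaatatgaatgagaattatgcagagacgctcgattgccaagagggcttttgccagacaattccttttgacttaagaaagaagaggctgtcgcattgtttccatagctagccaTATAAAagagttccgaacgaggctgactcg
Myh4: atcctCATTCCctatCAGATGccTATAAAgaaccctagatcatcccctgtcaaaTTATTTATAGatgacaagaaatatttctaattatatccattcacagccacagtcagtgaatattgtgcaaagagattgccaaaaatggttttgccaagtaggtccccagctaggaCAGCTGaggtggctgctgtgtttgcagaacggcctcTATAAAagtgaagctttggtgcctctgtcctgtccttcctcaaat
The Myh7 window held 3 E-boxes and none of the other 3 motifs, which says nothing about sequence outside these 250 bases. The Myh2 window held a single TATA box, whose first base lay 30 bases before the start, and no E-box. Myh4 held 3 TATA matches, of which 1 overlapped its MEF2 match, together with 2 E-boxes and 1 MCAT element. Of 33469 RefSeq promoters searched in the same way, 12.9% held the TATA box, 65.5% an E-box, 12.1% the MCAT element and 1.68% the MEF2 consensus. Such windows were found for 7 of the 9 measured members. In the troponin windows, Tnni1 had 2 E-boxes, Tnni2 had 1 and a TATA box, Tnnt1 had 2 and a TATA box, and Tnnc2 had 3 E-boxes. These are matches of letters only, and binding was not measured.

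The first comparison asked whether the slow and fast genes differed between lactating and non-lactating rats 1 week after injury. All 9 members had higher mean levels with lactation, with log2 fold changes from 0.34 to 0.77 and a median of 0.49, against a median of -0.0038 over all genes tested, of which 49.4% lay above zero. When libraries were scaled to 5 genes taken as shared by all fibers (the sarcomere scaling), that common shift was gone. On that scale 4 of the 9 took the opposite sign. None of the 9 passed the cutoffs of adjusted p under 0.05 and absolute log2 fold change over 1 in the edgeR quasi-likelihood test, nor adjusted p alone. Over all 14599 genes 0.253% passed both cutoffs and 0.569% passed adjusted p alone. At an unadjusted p under 0.05, 7 of the 9 members were higher, against 9.76% of all genes. The 3 libraries of each group did not overlap for 5 members, all higher with lactation, against 14.3% of all genes.

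Slow myosin Myh7 was at 1945, 4072 and 4807 CPM in the non-lactating libraries and at 5967, 6882 and 5285 CPM in the lactating ones. The groups did not overlap, and 1 non-lactating library lay far below the other two. Means were 3608 ± 1486 and 6045 ± 801 CPM (SD, n = 3), a log2 fold change of 0.74 ± 0.28 (SE) with an adjusted p of 0.171 by edgeR.

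Type IIa myosin Myh2 was at 1854, 2093 and 4501 CPM without lactation and at 4108, 4973 and 5305 CPM with it. Here a single non-lactating library, replicate 3, reached into the range of the lactating ones. The log2 fold change was 0.77 ± 0.31 (SE), the highest of the 9, with an edgeR adjusted p of 0.202. As single libraries were left out, the log2 fold change of Myh2 ranged from 0.54 (without 1wk SBI replicate 1) to 1.28 (without 1wk SBI replicate 3). Without replicate 1 the lowest edgeR adjusted p of any member was 0.456. Without replicate 3 the edgeR adjusted p of Myh2 was 0.00947, and Myh2 then passed both cutoffs. Adjusted p alone was then passed also by Tnnc2, Tnni2 and Tnnt3, so that 4 members were called without 1wk SBI replicate 3 and 0 with it. Over all 14803 genes tested without that library, 921 passed adjusted p alone and 235 both cutoffs. With it, 83 and 37 of 14599 did, so calls rose over all genes and not only among members.

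Type IIb myosin Myh4 was at 30596, 23745 and 37652 CPM without lactation and at 46019, 47794 and 35436 CPM with it. One library of each group lay inside the range of the other. Its log2 fold change was 0.49 ± 0.25 (SE) with an edgeR adjusted p of 0.289.

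Among the inhibitory subunits, slow Tnni1 was at 538, 563 and 667 CPM without lactation and at 668, 789 and 782 CPM with it. The groups touched without overlapping, and the log2 fold change of 0.34 ± 0.20 (SE) was the lowest of the 9 members. Fast Tnni2 was at 2788, 2412 and 3816 CPM against 4052, 4510.5 and 3784 CPM, with a log2 fold change of 0.45 ± 0.19 (SE). Its groups overlapped by 1 library.

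For the tropomyosin-binding subunits, slow Tnnt1 was at 467, 819 and 860.5 CPM without lactation and at 984, 1230.2 and 993 CPM with it. As for Myh7, the lowest value belonged to 1wk SBI replicate 1. Fast Tnnt3 was at 6522, 5580.1 and 8392 CPM against 9563, 10043 and 8227 CPM, with overlap. Log2 fold changes were 0.58 ± 0.26 (SE) for Tnnt1 and 0.44 ± 0.19 (SE) for Tnnt3.

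Of the calcium-binding subunits, slow Tnnc1 was at 216, 331 and 361 CPM without lactation and at 431, 516 and 432 CPM with it. Fast Tnnc2 was at 3612, 3257 and 4512 CPM against 5629, 5473 and 4761 CPM. Neither gene's groups overlapped. Log2 fold changes were 0.60 ± 0.25 (SE) and 0.48 ± 0.17 (SE), and Tnnc2 had the lowest adjusted p of the members, 0.155 by edgeR. With DESeq2 on all 12 libraries the adjusted p of Tnnc2 was 0.0222, and 1 member passed adjusted p alone, where 796 of 14345 genes did.

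**Figure D1:**
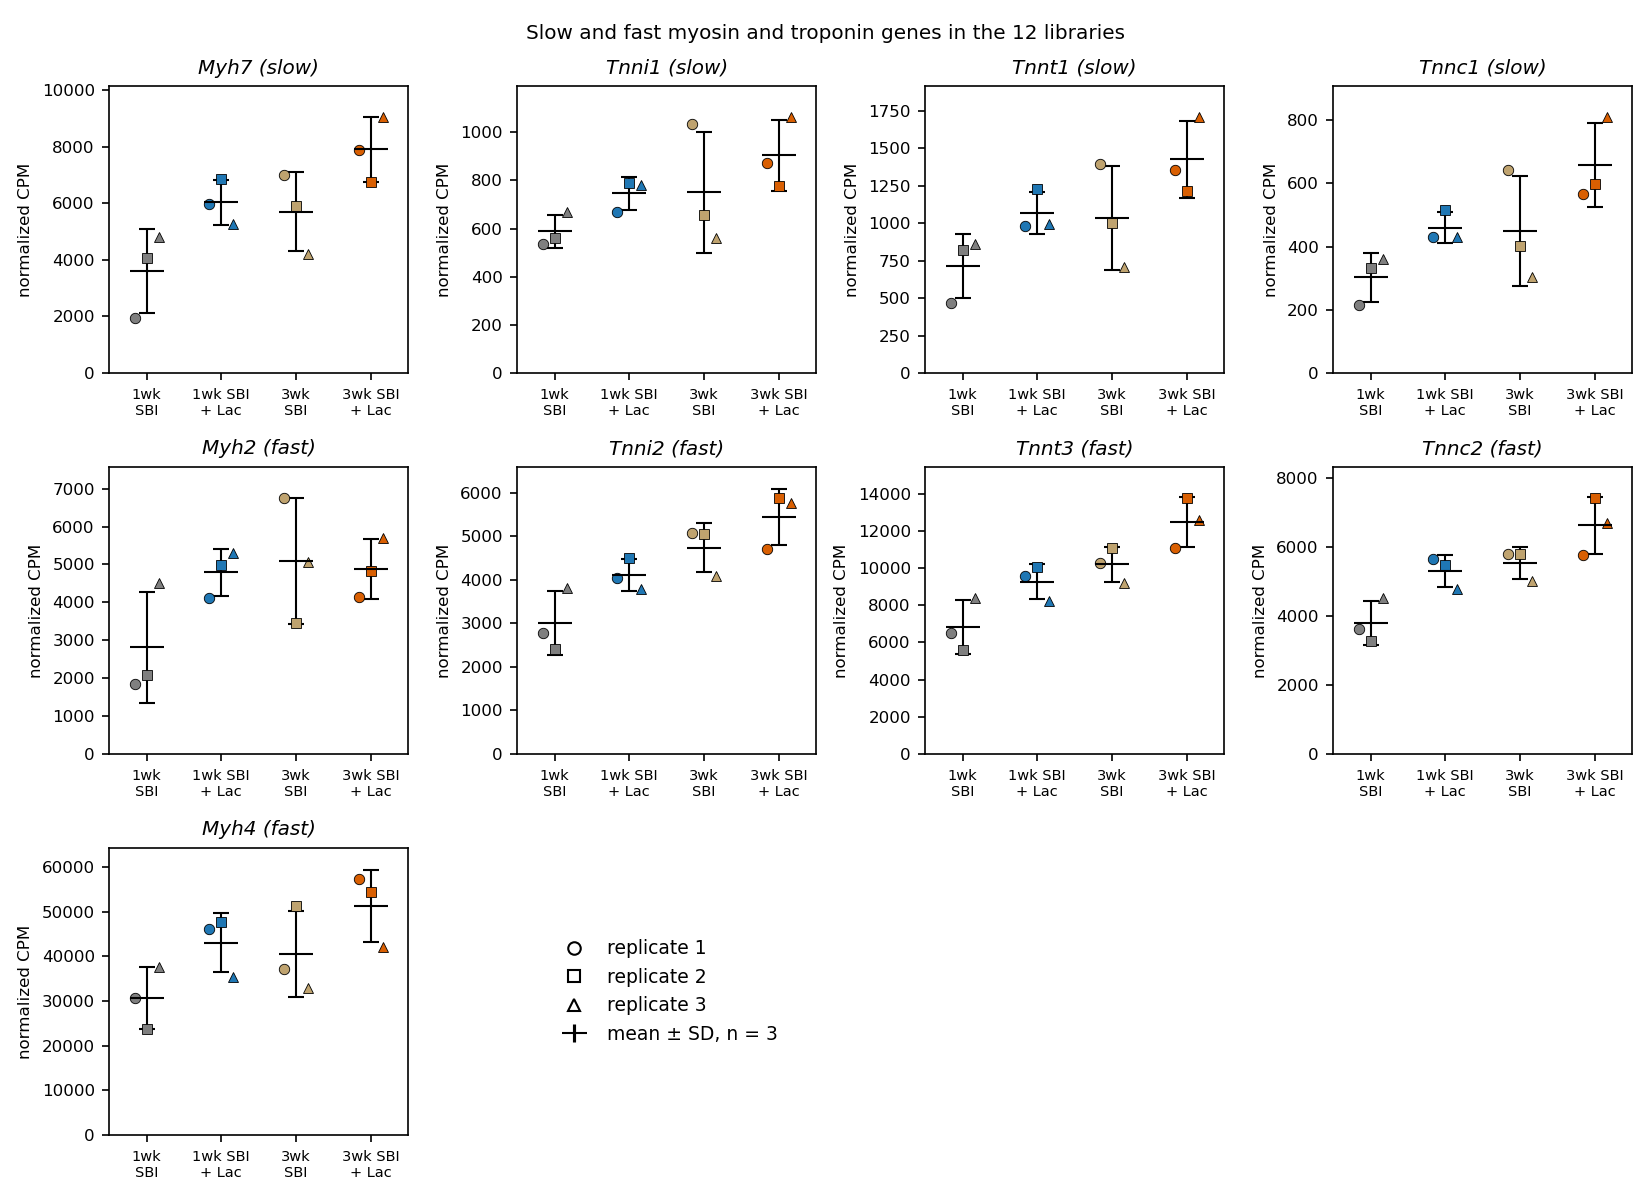
Normalized CPM (y axis, linear from 0, a separate scale for each gene) of the 4 slow and 5 fast genes in the 12 libraries. Points are single pools of 2 rats with the replicate number as symbol, bars are the mean ± SD of 3 pools, and at 1 week the lactating means lie above the non-lactating ones for all 9 genes on this scaling.

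The share of muscle transcripts in the RNA moved with the members. The 9 genes took 6.06% ± 0.65 of all counts without lactation and 7.41% ± 0.51 with it (SD, n = 3). The 5 genes taken as shared by all fiber types (Acta1, Ttn, Neb, Des and Ckm, here called shared sarcomere genes) took 8.70% ± 1.09 and 10.3% ± 0.54. Des is also among the smooth muscle markers, and whether these 5 genes are equal between fiber types was not tested. Whether a higher share reflects more or larger fibers, or more RNA of these genes per fiber, cannot be told apart in RNA from whole muscle. Library sizes were therefore also set by these 5 genes, which moved the median of all genes at 1 week to -0.51 on the log2 scale. On this scale the members' median log2 fold change was 0.01, with 5 higher and 4 lower. Myh7 was at 0.28 (95% confidence interval -0.23 to 0.79), Myh2 at 0.37 (-0.27 to 1.02) and Myh4 at 0.01 (-0.25 to 0.27). The fast troponins were also near zero, with Tnni2 at -0.01 (-0.25 to 0.23), Tnnt3 at -0.03 (-0.26 to 0.19) and Tnnc2 at -0.0030 (-0.24 to 0.24). The slow troponins had wider intervals, with Tnni1 at -0.14 (-0.52 to 0.24), Tnnt1 at 0.09 (-0.38 to 0.57) and Tnnc1 at 0.12 (-0.34 to 0.58). Relative to shared sarcomere transcripts, no member passed the edgeR test, where 5.7% of all genes passed both cutoffs, and differences within these intervals were not detectable with 3 pools.

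At 3 weeks the same comparison gave smaller differences. Mean levels were higher in 3wk SBI + Lac for 8 of 9 members, with a median log2 fold change of 0.29 against -0.019 over all genes, of which 47.7% lay above zero, and with the sarcomere scaling 3 of 9 were higher and 0 passed both cutoffs, against 2.79% of all genes. No member passed both cutoffs or adjusted p alone by edgeR, where 0.74% and 2.54% of all genes did. Tnnc1 was the 1 member with an unadjusted p under 0.05, against 9.88% of all genes in that direction. Tnnt3 was the 1 member whose groups did not overlap, against 11.9% of all genes.

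Myh7 was at 6992, 5923 and 4219.9 CPM without lactation and at 7889, 6774 and 9068 CPM with it. The lowest lactating library lay inside the non-lactating range. Its log2 fold change was 0.47 ± 0.28 (SE), with an edgeR adjusted p of 0.355. Myh4 was at 37188, 51265 and 32917 CPM against 57374, 54376 and 42096 CPM, with a log2 fold change of 0.34 ± 0.24 (SE) and an edgeR adjusted p of 0.447.

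Myh2 was the exception. It was at 6758, 3456 and 5055 CPM without lactation and at 4129, 4825 and 5697 CPM with it, so the lactating libraries lay wholly within the non-lactating range. The log2 fold change was -0.06 ± 0.31 (SE), with a 95% confidence interval of -0.73 to 0.61. Leaving out one library at a time moved it between -0.27 and 0.20.

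Among the 3-week troponins, Tnnc1 was at 642, 403 and 303 CPM without lactation and at 565, 597 and 811 CPM with it, a log2 fold change of 0.55 ± 0.25 (SE) with an edgeR adjusted p of 0.235. Replicate 1 of 3wk SBI held the high value, and without it the log2 fold change was 0.90 with an edgeR adjusted p of 0.0488. Of all 14998 genes tested without that library, 526 passed adjusted p alone. As single libraries were left out, the log2 fold change of Tnnc1 ranged from 0.33 to 0.90. The lowest value came without 3wk SBI replicate 3, where the lowest edgeR adjusted p of any member was 0.563. Tnnt3 was at 10289, 11079.7 and 9217 CPM against 11080.4, 13782 and 12572 CPM, so its groups were parted by less than 1 CPM. The other 4 troponin genes had log2 fold changes from 0.20 (Tnni2) to 0.46 (Tnnt1), with overlapping groups.

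Whether the lactation effect differed between the time points was tested directly as an interaction. The 3-week effect was smaller than the 1-week effect for all 9 members, from -0.05 (Tnnc1) to -0.83 (Myh2) on the log2 scale, and with the sarcomere scaling this difference was negative for 6 of the 9. The adjusted p was 0.999 for each by edgeR, and 0.00685% of all genes passed, 47.4% of all genes lying above zero. None of the 9 was under 0.05 unadjusted, where 2.75% of all genes were, in the direction of a smaller effect at 3 weeks. For Myh2 the difference was -0.83 ± 0.44 (SE) with an unadjusted p of 0.0809 by edgeR. A difference between the time points was thus not shown for any member.

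**Figure D2:**
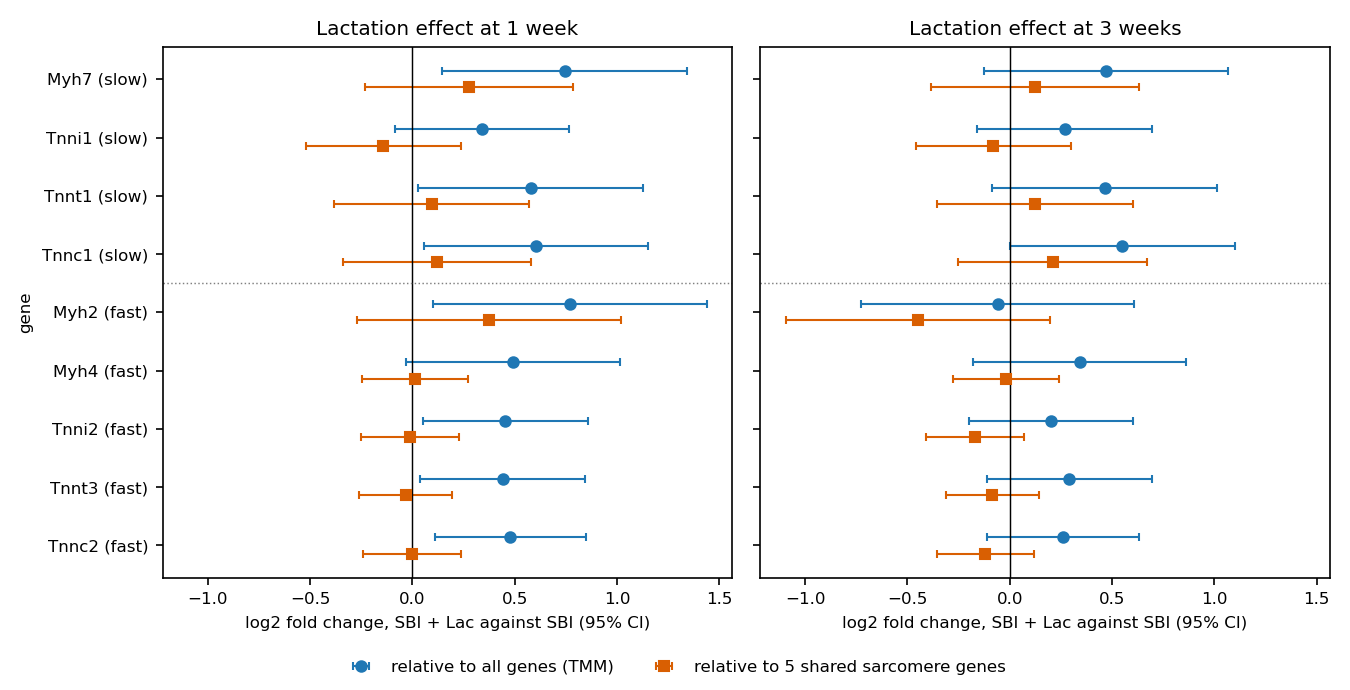
Log2 fold change of SBI + Lac against SBI (x axis, with 95% confidence intervals) for each gene (y axis) at 1 week and 3 weeks, with libraries scaled to all genes by TMM (circles) or to 5 shared sarcomere genes (squares). Circles lie to the right of zero for 9 genes at 1 week and 8 at 3 weeks, whereas squares lie on both sides of zero, and no gene passed the adjusted test on either scale.

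Slow-to-fast ratios within a library do not depend on how libraries are scaled. They compare transcripts of whole muscle, without Myh1, and no fiber counts were analysed here. Ratios were computed on counts with 0.5 added. The myosin ratio, Myh7 over the sum of Myh2 and Myh4, was 0.0599, 0.158 and 0.114 at 1 week without lactation and 0.119, 0.130 and 0.130 with it. At 3 weeks it was 0.159, 0.108 and 0.111 without lactation and 0.128, 0.114 and 0.190 with it. The lactating libraries at 1 week were tightly grouped, while the non-lactating ones held both a far lower and a higher value. On the log2 scale the SD of 3 pools was 0.71 without lactation and 0.07 with it, and this difference in spread was not tested.

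The troponin I ratio, Tnni1 over Tnni2, ranged at 1 week from 0.175 to 0.233 without lactation and 0.165 to 0.207 with it, and at 3 weeks from 0.130 to 0.204 and 0.132 to 0.185. The troponin T ratio, Tnnt1 over Tnnt3, ranged from 0.0716 to 0.147, 0.103 to 0.122, 0.0768 to 0.136 and 0.0881 to 0.136 in the same order. The troponin C ratio, Tnnc1 over Tnnc2, ranged from 0.0598 to 0.102, 0.0766 to 0.0942, 0.0606 to 0.111 and 0.0805 to 0.121. In all 4 ratios the lactating and non-lactating libraries overlapped at both time points.

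The difference in mean log2 ratio, lactating minus non-lactating, was 0.30 at 1 week and 0.18 at 3 weeks for the myosins, with exact permutation p of 0.7 and 0.5. It was -0.13 and 0.10 for troponin I (exact p 0.5 and 0.9), 0.17 and 0.21 for troponin T (exact p 0.7 and 0.6) and 0.14 and 0.35 for troponin C (exact p 0.7 and 0.3). These two-sided tests of 3 against 3 cannot go below 0.1. Over both time points, with labels exchanged within each, the 4 differences were 0.24, -0.02, 0.19 and 0.24, with exact permutation p of 0.365, 0.93, 0.385 and 0.215 and Benjamini-Hochberg adjusted p of 0.513, 0.93, 0.513 and 0.513. No ratio differed beyond the spread between pools. The myosin difference at 1 week ranged from -0.09 to 0.61 as single libraries were left out, so its sign rested on single pools.

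The composition of the fast myosins was as variable. Myh2 over Myh4 ranged at 1 week from 0.0606 to 0.120 without lactation and from 0.0893 to 0.150 with it, and the mean log2 difference was 0.37. At 3 weeks it ranged from 0.0674 to 0.182 and from 0.0720 to 0.135, with a mean log2 difference of -0.37. The standard errors were 0.36 and 0.52.

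**Figure D3:**
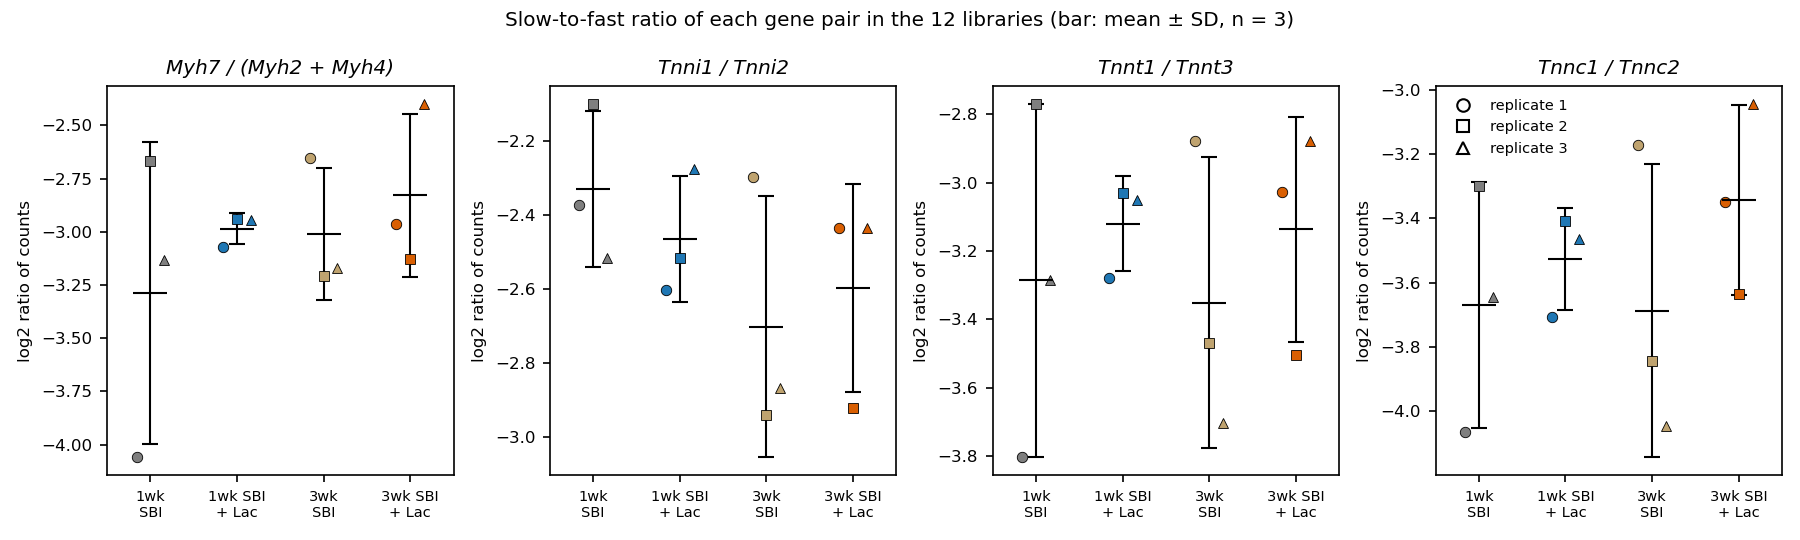
Log2 slow-to-fast ratio of counts (y axis, a separate scale for each pair) in the 12 libraries, by group, with the mean ± SD of 3 pools. Lactating and non-lactating libraries overlap in every panel, and the myosin ratio at 1 week spans 0.0599 to 0.158 without lactation against 0.119 to 0.130 with it.

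The time course was compared within non-lactating and within lactating rats. Columns of the 2 time points were counted differently (whole numbers at 1 week, decimals at 3 weeks), so time and counting cannot be told apart in these contrasts, and the myosins, whose genes are close copies of each other, can share reads. In non-lactating rats all 9 members had higher mean levels at 3 weeks, from 0.35 (Tnni1) to 0.85 (Myh2) on the log2 scale with a median of 0.57, where 49.0% of all genes lay above zero, and with the sarcomere scaling 6 of the 9 did. None passed both cutoffs or adjusted p alone by edgeR, where 1.46% and 5.05% of all genes did. At an unadjusted p under 0.05, 6 of the 9 were higher, against 11.3% of all genes. The 3 fast troponins came nearest, with edgeR adjusted p of 0.0586 for Tnni2 (0.66 ± 0.19, SE), 0.0873 for Tnnc2 (0.54 ± 0.17) and 0.0940 for Tnnt3 (0.58 ± 0.19). These were also the 3 members whose groups did not overlap, against 10.2% of all genes. DESeq2 on all 12 libraries put these 3 past adjusted p alone, where 1345 of 13227 genes passed. Without 1wk SBI replicate 3, edgeR called Myh2 by both cutoffs (1.37) and 4 members by adjusted p alone, where 397 and 1456 of 14803 genes passed. Without 3wk SBI replicate 3 it called 4 members by adjusted p alone, where 2083 of 14763 genes passed.

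In lactating rats the 9 members were at 0.03 (Myh2) to 0.52 (Tnnc1) on the log2 scale with a median of 0.39, where 47.7% of all genes lay above zero, and with the sarcomere scaling 5 of the 9 did. No member passed by edgeR, where 0.774% of all genes passed both cutoffs and 2.01% adjusted p alone. At an unadjusted p under 0.05, 2 of the 9 were higher, against 8.36% of all genes. Tnnc1, Tnnc2, Tnni2 and Tnnt3 did not overlap between the weeks, against 13.4% of all genes. DESeq2 on the 6 lactating libraries put 6 members past adjusted p alone, where 1371 of 13848 genes passed. Both time contrasts share their libraries with the lactation comparisons and are not independent of them.

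Slow genes followed slow genes and fast troponins followed each other across the 12 libraries. Log2 CPM was centred on the mean of each week, so that the points still share lactation status and the muscle share of the RNA, and correlations are given as descriptions without a test. Among the 6 slow pairs Pearson's r ran from 0.76 to 0.98 with a median of 0.92, with Tnnt1 and Tnnc1 closest at 0.98 and Myh7 at 0.96 with Tnnt1. The 3 fast troponins had r of 0.96 to 0.98 with one another. Myh4 had r of 0.78 to 0.86 with the fast troponins but 0.33 with Myh2, the lowest of all 36 pairs. Myh2 had r of 0.63 to 0.74 with the fast troponins and 0.64 to 0.69 with the slow genes. The 10 fast-with-fast pairs ran from 0.33 to 0.98 with a median of 0.79. The 20 slow-with-fast pairs ran from 0.36 to 0.73 with a median of 0.66.

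**Figure D4:**
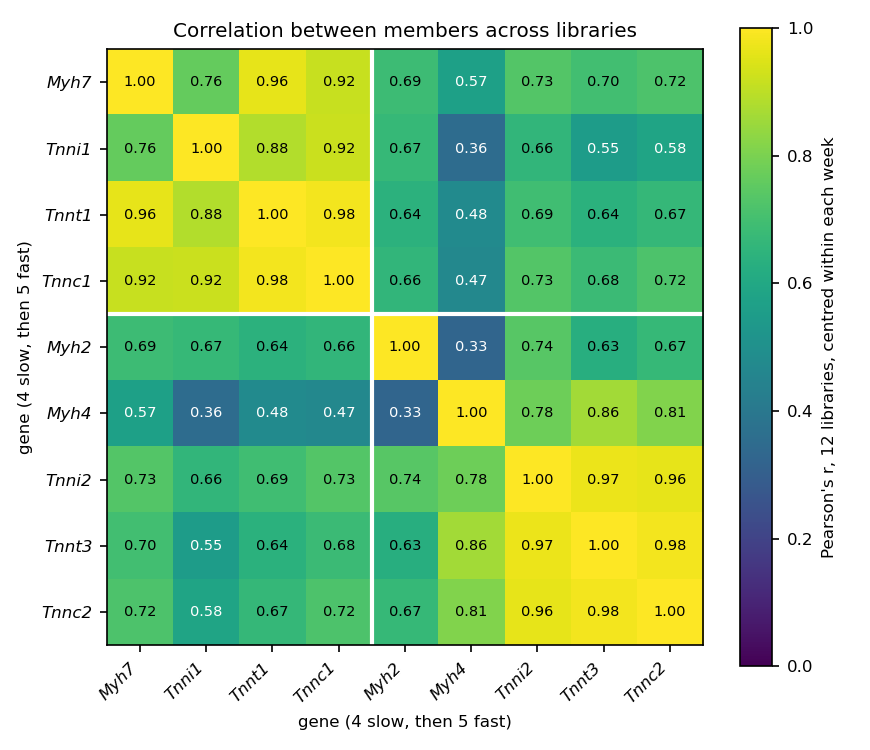
Pearson's r between members (colour and printed value, 0 to 1) over 12 libraries, on log2 normalized CPM centred within each week; the white lines part 4 slow from 5 fast genes. Slow pairs have a median r of 0.92, fast pairs 0.79 and slow-with-fast pairs 0.66, and Myh2 with Myh4 is lowest at 0.33.

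Over 9197 genes with a mean of at least 5 CPM, the genes outside the members whose pattern was most like that of Myh7 were Myl3 (r = 0.99), the essential light chain shared by slow fibers and heart, Atp2a2 (0.97), the slow-fiber calcium pump, Plin4 (0.97), a lipid droplet protein, Rxrb (0.96), a nuclear receptor, and Cul5 (0.96), a ubiquitin ligase scaffold. Those most like Myh4 were Mybpc2 (0.96), the fast myosin-binding protein C, Aldoa (0.96), a glycolytic aldolase, Znhit1 (0.96), Ampd1 (0.95), the muscle AMP deaminase, and Pygm (0.95), muscle glycogen phosphorylase.

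Other genes of the slow and fast contractile programmes were read as background to the members. Of 12 slow-programme genes measured, all 12 had higher means with lactation at 1 week (median log2 fold change 0.55), against 7 of 12 and a median of 0.06 with the sarcomere scaling, and 0 passed both cutoffs. Myoz2, a Z-disc protein of slow fibers, was at 160 ± 29.2 and 258 ± 37.0 CPM (SD, n = 3), a log2 fold change of 0.69 with an edgeR adjusted p of 0.0745. Of 13 fast-programme genes 12 were higher, with a median of 0.34, against 6 of 13 and a median of -0.12 with the sarcomere scaling, and 0 passed. Actn3, the fast-fiber Z-disc actinin, was at 5013 ± 1316 and 9299 ± 1437 CPM, a log2 fold change of 0.89 with an edgeR adjusted p of 0.0816. Myoz1, its fast-fiber binding partner at the Z-disc, was at 0.73 (adjusted p 0.0745).

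At 3 weeks 9 of 12 slow and 9 of 13 fast genes had higher means with lactation, with medians of 0.24 and 0.16, against 4 and 4 with the sarcomere scaling, and 0 passed. Myoz1 was at 0.74 and Actn3 at 0.83, with edgeR adjusted p of 0.0561 and 0.0794. Of the slow genes the 2 with the lowest p were Myoz2 at 0.54 and Atp2a2 at 0.54. The 9 genes listed as independent of fiber type were all higher at 1 week (median 0.49, 0 called) and at 3 weeks (median 0.16, 0 called). The sarcomere scaling, set by 5 of them, left 5 and 3 higher. The 9 were led by Tcap, the titin cap of the Z-disc, at 0.77 and then by Ckm, muscle creatine kinase, at 0.53.

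Between 1 week and 3 weeks 2 of the 25 programme genes passed both cutoffs in non-lactating rats and 1 in lactating rats, where 1.46% and 0.774% of all genes did. Myl2, the regulatory light chain of slow fibers, rose in non-lactating rats from 306 ± 102 to 650 ± 213 CPM (SD, n = 3), a log2 fold change of 1.09 with an edgeR adjusted p of 0.0335. With the sarcomere scaling no slow-programme gene was called, where 6.15% of all genes were. Sln, sarcolipin, a small inhibitor of the calcium pump, fell by 1.76 on the log2 scale in non-lactating rats (edgeR adjusted p 0.0379) and by 1.89 in lactating rats (adjusted p 0.0488).

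Of 26 regulators of fiber type, 21 had higher means with lactation at 1 week (median 0.25) and 17 at 3 weeks (median 0.08). With the sarcomere scaling 3 and 4 of them were higher, with medians of -0.26 and -0.30. That scaling moved the median of all genes to -0.51 and -0.42, so the loss of positive signs is not particular to regulators. At either time and on either scale 0 passed both cutoffs. Vgll2, a cofactor of TEAD factors, was at 0.68 and Mafa, a large Maf transcription factor, at 0.48 at 1 week, with edgeR adjusted p of 0.0700 and 0.0733. Ppard, a nuclear receptor of oxidative metabolism, was at 0.52 and Mstn, the growth inhibitor myostatin, at 0.93 at 3 weeks, with edgeR adjusted p of 0.0593 and 0.0783. From 1 to 3 weeks in non-lactating rats 4 of 26 regulators passed adjusted p alone, against 5.05% of all genes, led by Mafa at 0.63 (edgeR adjusted p 0.0137).

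Genes of immature or regenerating fibers ran the other way. Developing and regenerating fibers use embryonic myosin (Myh3) and perinatal myosin (Myh8) before they switch to the adult chains. Summed over 9 such genes, levels at 1 week were 2642 to 5877 CPM without lactation and 1247 to 1936 with it, and at 3 weeks 333 to 972 and 298 to 358. All 9 had lower means with lactation at both time points, with median log2 fold changes of -1.38 and -1.13, and 0 passed. With the sarcomere scaling, which moved the median of all genes to -0.51 and -0.42, all 9 were lower too. On that scale 4 passed at 1 week and 0 at 3 weeks, where 5.7% and 2.79% of all genes passed. Myh8 was at 922 ± 646 CPM without and 233 ± 63.9 CPM with lactation at 1 week (SD, n = 3), a log2 fold change of -1.98 with an edgeR adjusted p of 0.126. The 2 with the lowest p at 1 week were Actc1, the actin of developing and heart muscle, at -1.41 (edgeR adjusted p 0.0679) and Mymk, a protein needed for myoblast fusion, at -1.75 (0.0920). At 3 weeks they were Myh3 at -1.77 (edgeR adjusted p 0.114) and Myh8 at -1.58 (0.172).

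With time the immature genes fell. By both cutoffs 7 of 9 fell in non-lactating and 5 of 9 in lactating rats, where 1.1% and 0.685% of all genes fell. Mymx, a small peptide of myoblast fusion, fell by 3.98 and 3.93 on the log2 scale, with edgeR adjusted p of 0.0149 and 0.0360. Mymk was at -3.86 and -3.25. Myl4, the embryonic light chain, was at -3.28 and -2.96. Of 7 cardiac or rarely used isoforms 5 were tested, and Myh15 was the 1 of them to pass in each contrast, at -2.29 and -2.68. With lactation 0 of the 5 passed (1 at each time with the sarcomere scaling, where 5.7% and 2.79% of all genes passed), and Myh15 was at -1.36 and -1.75, with edgeR adjusted p of 0.0905 and 0.0647.

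Markers of other cell types were summed in the same libraries. The 6 fibroblast markers had lower means with lactation at both times, 0 of them called, and summed at 1 week to 6907 to 10088 CPM without lactation and 3927 to 7485 with it, and at 3 weeks to 3248 to 7493 and 1929.7 to 2799. The 7 macrophage markers summed to 305 to 396, 237 to 337, 231 to 503 and 229.6 to 297 CPM in the same order, with overlap at both times. Of these 7, 1 passed with lactation, the lysosomal protein Cd68, at -0.96 at 1 week (edgeR adjusted p 0.0417, by adjusted p alone) and at -1.08 at 3 weeks (edgeR adjusted p 0.0150, by both cutoffs). Over all genes 0.569% passed adjusted p alone at 1 week and 0.74% both cutoffs at 3 weeks. The 4 erythroid markers summed to 242 to 414 CPM without and 556 to 779.8 CPM with lactation at 1 week, and to 97.3 to 183 and 132 to 242 CPM at 3 weeks. At an edgeR unadjusted p under 0.05, 4 of them were higher at 1 week and 0 at 3 weeks, against 9.76% and 9.88% of all genes. The 7 mammary epithelium markers summed in the same order to 0.56 to 1.55, 1.05 to 3.19, 0.25 to 2.25 and 0.22 to 33.9 CPM. Of the 3 tested, 2 were higher at that unadjusted p at each time, and 0 passed adjusted p. No marker of smooth muscle, endothelium, adipocytes or nerve passed adjusted p alone with lactation at either time by edgeR, and 1 smooth muscle marker at 1 week and 1 endothelial marker at 3 weeks had an unadjusted p under 0.05. The part of these cells in the levels of the slow and fast genes was not tested.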

How the data were processed

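Poly(A) RNA of whole pubocaudalis muscle was sequenced from stranded libraries in 12 pools of 2 rats, 3 pools in each of 4 groups. The authors deposited 1 table of counts per gene. The 1-week columns hold whole-number counts, and the 3-week columns deposited by the authors hold estimated counts, with decimals in 26.6% to 44.0% of values, which were rounded to whole numbers here. Salmon is named in the submitters' processing notes. Genome build and annotation are not given in the sources used here. As the design had assumed counts, the test was kept.

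Members were matched by exact symbol. Counts were tested with edgeR 4.0.16 (R 4.3.3, limma 3.58.1) by filterByExpr, TMM and the robust quasi-likelihood test with 4 groups and no covariate, with Benjamini-Hochberg adjustment over 14599 genes. The cutoffs were adjusted p under 0.05 and absolute log2 fold change over 1. The study's own tool was DESeq2. Here DESeq2 1.42.0, other scalings and filters, single libraries left out and a replicate block were alternatives. On simulated data with 200 genes changed by 2 on the log2 scale at 1 week, of 14336 genes, 170 (85%) were called in the right direction beside 6 false calls. The members' lactation effects lay between -0.06 and 0.77, and detection of changes of that size was not simulated. Ratios were tested by exact permutation in Python 3.11.15 (numpy 2.4.6, pandas 2.3.3, scipy 1.17.1, with figures by matplotlib 3.10.9).

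The members and lists were chosen with earlier results of these data known. Named were all members, up to 3 genes per list past both cutoffs or else the 2 with the lowest p, and the 5 genes most like Myh7 and Myh4. Cd68, Myh8 at 1 week, Myoz1 at 1 week beside Actn3 and the genes lost or gained without a library were named in addition. No 2 libraries of a group agreed within sampling noise. Pools hold different rats, and p-values measure only the spread between pools.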

Additional observations from a re-analysis of the deposited data

How the results depend on the processing

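Scaling to 5 shared sarcomere genes turned the sign of 19 member values, none of them called. At 1 week these were Tnni1 (-0.14), Tnni2 (-0.011), Tnnt3 (-0.033) and Tnnc2 (-0.0030), and at 3 weeks Myh4 (-0.019), Tnni1 (-0.081), Tnni2 (-0.17), Tnnt3 (-0.086) and Tnnc2 (-0.12). The difference between the effects became 0.062 for Tnni1, 0.031 for Tnnt1 and 0.091 for Tnnc1. Over time Myh4, Tnni1 and Tnnt1 became -0.11, -0.18 and -0.0030 in non-lactating rats, and Myh2, Myh4, Tnni1 and Tnnc2 became -0.38, -0.14, -0.12 and -0.073 in lactating rats.

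At adjusted p alone, where edgeR called 0 members, DESeq2 on all 12 libraries called 1 at 1 week and 3 over time without lactation. Over all genes DESeq2 there called 796 of 14345 and 1345 of 13227. On the 6 libraries compared, DESeq2 called 3 at 1 week, 3 over time without and 6 with lactation, and edgeR called 1 over time with lactation. Over all genes these DESeq2 fits called 1372 of 14916, 802 of 13940 and 1371 of 13848, and the edgeR fit 1047 of 13646. Leaving out single libraries gave 0 to 4 members at 1 week and over time without lactation, and 0 to 1 at 3 weeks. The 4 at 1 week came without 1wk SBI replicate 3 (921 of 14803 genes passed). Over time they came without that library (1456 of 14803) or 3wk SBI replicate 3 (2083 of 14763). The 1 at 3 weeks came without 3wk SBI replicate 1 (526 of 14998). By both cutoffs, leaving out single libraries gave 0 to 1 at 1 week and over time without lactation. The 1 came without 1wk SBI replicate 3, where 235 and 397 of 14803 genes passed.

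Without single libraries the sign of 16 values not called also turned. Myh2 then ranged from -0.27 to 0.20 at 3 weeks and -0.081 to 0.13 over time with lactation. The difference between the effects ranged from -0.54 to 0.024 for Myh7, -0.32 to 0.068 for Myh4 and -0.27 to 0.29 for Tnnc1. The ranges for Tnni1 and Tnnt1 are -0.25 to 0.23 and -0.33 to 0.16.

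With replicate number as a block 0 members passed in any comparison, and over all genes the block gave 8 calls at 1 week, against 37 without it, and 64 at 3 weeks, against 108. Same-numbered pools deviated against each other (r = -0.23 to -0.05), so the numbers do not pair the samples. The ratio of Myh7 to Myh1 was not run. With 3 pools a group, precision rests on the spread between pools more than on depth for these abundant genes. The sarcomere scaling of the lists of other genes was chosen after seeing the data. It called 5 of these genes in place of 0 at 1 week, 1 in place of 0 at 3 weeks, and 12 in place of 10 and 8 in place of 7 over time without and with lactation. Over all genes it called 832 in place of 37, 407 in place of 108, 898 in place of 213 and 349 in place of 113, so more calls on this scale are not particular to these genes.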
